A study of Mus musculus with 9 samples.

Results

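Sox genes encode transcription factors that bind DNA through a shared domain, the HMG box. This account covers 9 of them that are active in neural progenitors, chosen by gene symbol: Sox1, Sox2, Sox3 and Sox21 of group B, Sox4 and Sox11 of group C, Sox8 and Sox9 of group E, and Sox5 of group D. All 9 were measured, by 32 of the 34945 probe sets with 1 gene symbol, and the brightest probe set of each gene stood for it among 18193 genes. Group B1 factors (Sox1, Sox2, Sox3) keep neural cells in the progenitor state, and the group B2 factor Sox21 counters them and favours differentiation. Group C factors (Sox4, Sox11) act in immature neurons and precursors, Sox8 and Sox9 act in the glial lineage, with Sox9 needed for stem cells to form and to turn gliogenic, and Sox5 modulates the action of other Sox proteins.

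RNA of 9 cell cultures was hybridised to Affymetrix mouse arrays, 3 per group, and all mice were C57BL/6. The wild-type cultures were neural stem cells (NSC) of the third ventricle region from Nf1flox/flox pups at postnatal day 1, infected with a LacZ virus as control. The Nf1-null cultures were the same kind of Nf1flox/flox cells infected instead with a virus carrying Cre, so that Nf1, which encodes the Ras inhibitor neurofibromin, was inactivated. The glioma cultures were glioma stem cells from optic nerve tumours of 3-month-old mice, of genotype Nf1+/-GFAP CKO, an abbreviation that the labels do not spell out. Every culture was kept without attachment in medium with FGF and EGF, each at 20 ng/ml. Tumour origin, tissue, age, virus and genotype all separated the glioma cultures from the others, and these cannot be told apart. The labels call the NSC arrays independent cultures and do not say whether the glioma arrays came from separate tumours, so each p-value reflects the spread among these arrays alone, which may be technical.

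The mean signal trimmed by 2% at either end was 1499.5 on every array. Nf1 signals were 919.5 to 1139.5 in wild-type cultures, 430.3 to 645.8 in Nf1-null cultures and 548.9 to 622.6 in glioma cultures at its brightest probe set, where the wild-type cultures lay above both other groups. The 2 dimmer Nf1 probe sets had group means of at most 179, and on one of them the glioma mean of 179 was above the wild-type mean of 127. The log2 difference of Nf1 was -0.90 between Nf1-null and wild-type cultures (SE 0.19, adjusted p = 0.123), which did not pass. Between glioma and wild-type cultures it was -0.78 (SE 0.19, adjusted p = 0.0441), which passed, beside 5.6% of all genes that fell. With every probe set as a feature of its own that difference did not pass (adjusted p = 0.0554). Where the probe sets lie relative to the floxed part is not known here. Glioma arrays 2 and 3 were closely alike: across the brighter 9097 genes they correlated at 0.989. Glioma array 1 correlated at 0.950 and 0.944 with them and at 0.944 with Nf1-null array 1. Arrays within the NSC groups correlated at 0.938 to 0.964, so glioma array 1 was within the usual range. For the Sox, partner and target genes named below, the value without glioma array 1 is given where that changed a call. Such fits keep only glioma arrays 2 and 3, which may not be independent. Calls gained that way are weaker evidence than calls with all arrays. Of 10 neural stem cell markers all were measured, with a summed signal of 242477 to 327520 in wild-type cultures, 248850 to 266974 in Nf1-null cultures and 220655 to 266247 in glioma cultures, sums made up mostly of Fabp7 and Vim. Against wild-type cultures 3 of the 10 fell in glioma cultures, Msi1, Nr2e1 and Slc1a3, and 1 rose, Hes1, with a median log2 difference of -0.91 (all genes: 5.6% fell, 3.46% rose, median -0.09). On leaving out each array 0 to 3 fell and 0 to 2 rose. Microglial and endothelial or mural markers were low, with summed signals of at most 908.7 and 924.5 over 7 genes each. Actb gave 3'/5' probe set ratios, which reflect RNA quality, of 1.87 to 1.88 in wild-type cultures, 1.49 to 1.67 in Nf1-null cultures and 1.73 to 1.85 in glioma cultures. Its part in the results was not tested. In bulk RNA, fewer cells of a type and less RNA per cell cannot be told apart.

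Against wild-type cultures, 3 of the 9 Sox genes fell in glioma cultures, Sox1 by 15.2-fold, Sox21 by 3.15-fold and Sox9 by 2.59-fold, 0 rose and 6 did not pass an adjusted p of 0.05. Of all genes, 5.6% fell and 3.46% rose by the same rule. All 9 had an unadjusted p under 0.05, as did 26.3% of all genes. The median log2 difference over the 9 genes was -1.13, against -0.09 over all genes. The signals of 6 members lay wholly below those of wild-type cultures, as did those of 20.9% of all genes, and 1 member, Sox11, lay wholly above, as did 13.9% of all genes. Against Nf1-null cultures, 1 of 9 fell, Sox1, and 0 rose, beside 1.08% of all genes that fell and 0.671% that rose, and 3 of 9 had an unadjusted p under 0.05, as did 16.5% of all genes. Between Nf1-null and wild-type cultures 0 of 9 passed in the limma fit, beside 0% of all genes, and 0 of 9 had an unadjusted p under 0.05, against 16.8% of all genes. Fits with a mean-variance trend and without moderation also gave 0 of 9 there, while 329 of all 18193 genes passed in the fit with the trend. Comparisons against wild-type cultures share those 3 arrays, so the agreement of their directions is no separate evidence.

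**Figure D1:**
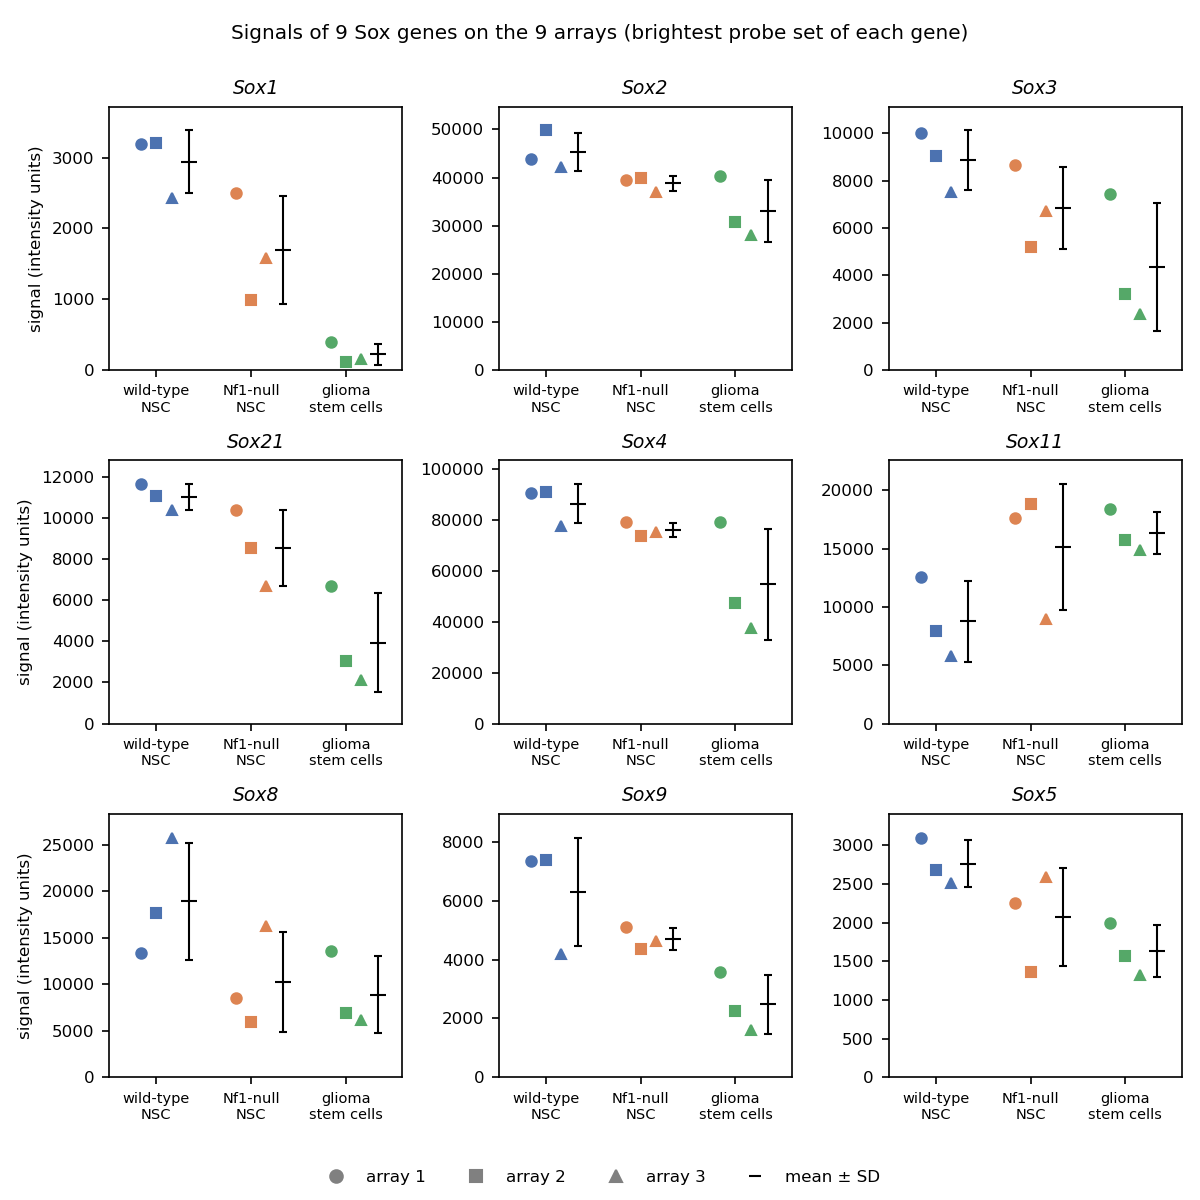
Signal in intensity units (vertical axis, linear, differing between panels) of the brightest probe set of each of the 9 Sox genes on the 3 arrays of each group, with symbols for array number and bars for the mean ± SD. Sox1 is at 391.9 or less on the 3 glioma arrays and at 990.0 or more on the 6 NSC arrays, while Sox11 is higher in glioma cultures than in wild-type cultures.

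The stretches of DNA just before the starts of 5 of these genes are shown because their differences varied in direction and size. Sox1 and Sox21 fell, and Sox2 and Sox4 are the group members with other sizes of difference. Sox11 had differences of the other sign from its group C partner Sox4, though neither passed with all arrays. RefSeq promoter sequences (build GRCm38.p6) were found for 7 of the 9 genes. Each run below is the 250 bases before the gene start, 5′ to 3′ on the gene's strand. Capitals mark matches on either strand to the CCAAT box, to the GC box GGGCGG, or to the Sox core motifs ACAAAG and ACAATG.
Sox1 (chr8:12395269-12395518, plus strand): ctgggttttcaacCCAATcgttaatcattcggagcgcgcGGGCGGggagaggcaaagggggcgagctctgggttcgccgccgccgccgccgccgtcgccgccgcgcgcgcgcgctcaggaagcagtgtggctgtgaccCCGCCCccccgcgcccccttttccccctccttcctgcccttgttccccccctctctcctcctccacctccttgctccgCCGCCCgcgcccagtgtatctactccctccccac
Sox21 (chr14:118237031-118237280, minus strand): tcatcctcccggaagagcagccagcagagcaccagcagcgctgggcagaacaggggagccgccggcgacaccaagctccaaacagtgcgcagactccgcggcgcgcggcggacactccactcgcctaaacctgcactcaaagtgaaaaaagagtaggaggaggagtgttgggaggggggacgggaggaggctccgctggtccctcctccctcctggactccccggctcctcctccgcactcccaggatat
Sox2 (chr3:34649745-34649994, plus strand): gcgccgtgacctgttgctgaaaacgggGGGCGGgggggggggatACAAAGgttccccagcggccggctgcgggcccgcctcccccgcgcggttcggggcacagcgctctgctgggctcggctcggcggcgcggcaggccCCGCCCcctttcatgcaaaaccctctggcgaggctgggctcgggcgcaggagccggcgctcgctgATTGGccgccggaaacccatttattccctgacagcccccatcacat
Sox4 (chr13:28953700-28953949, minus strand): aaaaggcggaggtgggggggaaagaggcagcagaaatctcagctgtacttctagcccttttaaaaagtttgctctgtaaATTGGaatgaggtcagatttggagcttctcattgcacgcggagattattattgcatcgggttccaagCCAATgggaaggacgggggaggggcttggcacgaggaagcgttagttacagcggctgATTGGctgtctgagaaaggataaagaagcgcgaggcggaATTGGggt
Sox11 (chr12:27342719-27342968, minus strand): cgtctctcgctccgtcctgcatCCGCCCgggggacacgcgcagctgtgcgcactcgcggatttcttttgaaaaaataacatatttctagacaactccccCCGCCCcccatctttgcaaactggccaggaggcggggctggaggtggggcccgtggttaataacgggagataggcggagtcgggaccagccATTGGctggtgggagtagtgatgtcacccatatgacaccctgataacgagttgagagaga

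These windows were rich in G and C, at 71.2% for Sox1, 72% for Sox2, 65.2% for Sox21 and 58.0% for Sox11, against a median of 52.4% over all 32841 promoters, while Sox4 had 50.8%. A CCAAT box was found 4 times before Sox4 and 1 time each before Sox1, Sox2 and Sox11, and 33.9% of all promoters held it. The GC box was found 3 times before Sox1 and 2 times each before Sox2 and Sox11, and 32.7% of all promoters held it. Of the Sox core motifs, ACAAAG stood 206 bases before the Sox2 start, and 16.5% of all promoters held it. ACAATG, held by 10.7%, was found in none of these 5 windows. Of the windows not shown, that of Sox5 held ACAATG 154 bases before its start and had 39.6% G and C. That of Sox8 had 65.6% G and C and held the GC box 2 times. The Sox21 window held none of the 4 motifs, which says only that these letters are not there.

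Sox1, a group B1 factor of early neural progenitors, had the largest differences of the 9 genes in both comparisons of glioma cultures. Its signals on arrays 1, 2 and 3 were 3189.3, 3210.2 and 2436.8 in wild-type cultures, 2503.1, 990.0 and 1589.0 in Nf1-null cultures, and 391.9, 111.4 and 160.1 in glioma cultures. Glioma cultures lay below all NSC arrays, whereas the NSC groups overlapped. In the same-numbered NSC pairs the Nf1-null array differed by -0.35, -1.70 and -0.62 on the log2 scale. Mean signals were 2945 ± 441 (SD, n = 3), 1694 ± 762 (SD, n = 3) and 221 ± 150 (SD, n = 3) in that order. On the log2 scale Sox1 fell by 3.93 in glioma cultures against wild-type cultures (SE 0.50, adjusted p = 0.00987), a call kept under every alternative run. Against Nf1-null cultures it was 8.22-fold lower (log2 -3.04, SE 0.50, adjusted p = 0.0369). That call was lost with the mean of both Sox1 probe sets (log2 -1.25, adjusted p = 0.257), where the other probe set was dim at mean signals of 28.9, 18.1 and 23.5. It was lost without moderation (adjusted p = 0.0749) and in the 6 arrays compared (adjusted p = 0.120). It was also lost on leaving out wild-type array 1, 2 or 3 (log2 -3.04 each), Nf1-null array 1 (-2.71), 2 (-3.38) or 3 (-3.03), or glioma array 2 (-2.65) or 3 (-2.91). Without glioma array 1 it held, at -3.55.

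Sox2, the group B1 factor that marks neural stem cells, had a single probe set, brighter than 99% of all probe sets. Its signals were 43917.8, 49793.5 and 42161.7 in wild-type cultures, 39495.4, 39814.9 and 36994.0 in Nf1-null cultures, and 40343.3, 30730.8 and 28137.3 in glioma cultures. Wild-type cultures lay above both other groups, which overlapped because glioma array 1 was above all 3 Nf1-null arrays. The log2 difference from wild-type cultures was -0.47 in glioma cultures (SE 0.17, 95% interval -0.87 to -0.06, adjusted p = 0.137) and -0.22 in Nf1-null cultures (SE 0.17, 95% interval -0.63 to 0.18, adjusted p = 0.567). Neither passed. Of the 9 genes, Sox2 was the only member wholly lower in Nf1-null than in wild-type cultures, as were 14.1% of all genes.

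Sox3, the third group B1 factor, lies on the X chromosome. Its signals were 10018.2, 9057.0 and 7535.0 in wild-type cultures, 8650.8, 5178.9 and 6718.6 in Nf1-null cultures, and 7439.4, 3220.0 and 2381.8 in glioma cultures. Glioma cultures were all below wild-type cultures, array 1 by little. The log2 difference was -1.19 (SE 0.41, adjusted p = 0.116) against wild-type cultures and -0.80 (SE 0.41, adjusted p = 0.392) against Nf1-null cultures. Without glioma array 1 the first was -1.67 and passed (adjusted p = 0.0186). The second Sox3 probe set had mean signals of 273, 282 and 242 and a log2 difference of -0.19 from wild-type cultures, so it did not show the change. Xist, expressed from an inactive X chromosome, had signals of 587.7 and 385.6 on the NSC arrays numbered 3 and of 30974.5 or more on the other 7 arrays, and its part in the Sox3 values was not tested.

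Sox21, the group B2 factor, was measured by 2 bright probe sets that moved together. The brighter had signals of 11628.2, 11055.6 and 10381.2 in wild-type cultures, 10404.7, 8518.3 and 6692.2 in Nf1-null cultures, and 6681.3, 3042.0 and 2100.0 in glioma cultures. Glioma cultures lay below all NSC arrays, array 1 only just. Mean signals were 11022 ± 624 (SD, n = 3), 8538 ± 1856 (SD, n = 3) and 3941 ± 2419 (SD, n = 3). Sox21 fell by 1.66 log2 units against wild-type cultures (SE 0.40, adjusted p = 0.0443). Against Nf1-null cultures the difference was -1.27 (SE 0.40, adjusted p = 0.176), which did not pass with all arrays and passed without glioma array 1 (-1.73, adjusted p = 0.0195). The other probe set gave log2 differences of -2.18 and -1.73 in these comparisons.

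Sox9, the group E factor of stem cells and astrocytes, had signals of 7351.9, 7390.5 and 4196.1 in wild-type cultures, 5111.0, 4368.8 and 4640.5 in Nf1-null cultures, and 3586.7, 2249.5 and 1616.4 in glioma cultures. Again the glioma cultures were lowest on every array, and wild-type array 3 lay below the Nf1-null range. Mean signals were 6313 ± 1833 (SD, n = 3), 4707 ± 376 (SD, n = 3) and 2484 ± 1006 (SD, n = 3). Sox9 fell by 1.38 log2 units against wild-type cultures (SE 0.34, adjusted p = 0.0459) and differed by -0.996 from Nf1-null cultures (SE 0.34, adjusted p = 0.200) without passing. Its second bright probe set gave -1.58 and -1.21, and the dim one -1.82 and -0.94.

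The calls of Sox21 and Sox9 against wild-type cultures were close to the threshold. Both were lost with arrays shifted to 1 median (log2 -1.59 and -1.31), with every probe set as a feature of its own (adjusted p = 0.0518 and 0.0537), without moderation (adjusted p = 0.0701 and 0.0683) and in the 6 arrays compared (adjusted p = 0.0881 and 0.0998). Sox21 alone was lost with the mean of its probe sets (log2 -1.92, adjusted p = 0.0537). On leaving out wild-type array 1, 2 or 3, Sox21 had log2 differences of -1.62, -1.65 and -1.70 and Sox9 of -1.24, -1.24 and -1.65, none past the threshold. Without glioma array 2 or 3 they were -1.56 and -1.29 for Sox21 and -1.34 and -1.10 for Sox9, and without Nf1-null array 1, 2 or 3 they stayed at -1.66 and -1.38, again not past it. Without glioma array 1 both held, at -2.12 and -1.68. In the fit of all probe sets 1 of 32 member probe sets fell in each comparison of glioma cultures, that of Sox1, beside 3.72% of all probe sets against wild-type cultures and 0.615% against Nf1-null cultures.

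Between the NSC groups, same-numbered pairs had the same sign in all 3 pairs for 7 of the 9 genes, negative for Sox1, Sox2, Sox3, Sox4, Sox8 and Sox21 and positive for Sox11, and mixed signs for Sox5 and Sox9. Over all genes, 55.5% of the group differences were negative here. The share of all genes with the same sign in all 3 pairs was not computed, so the 7 of 9 cannot be judged against it. The pair differences were -0.15, -0.32 and -0.19 for Sox2, -0.21, -0.81 and -0.17 for Sox3, -0.19, -0.30 and -0.042 for Sox4, and -0.16, -0.38 and -0.63 for Sox21. With the replicate number as a block 0 of 9 passed.

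**Figure D2:**
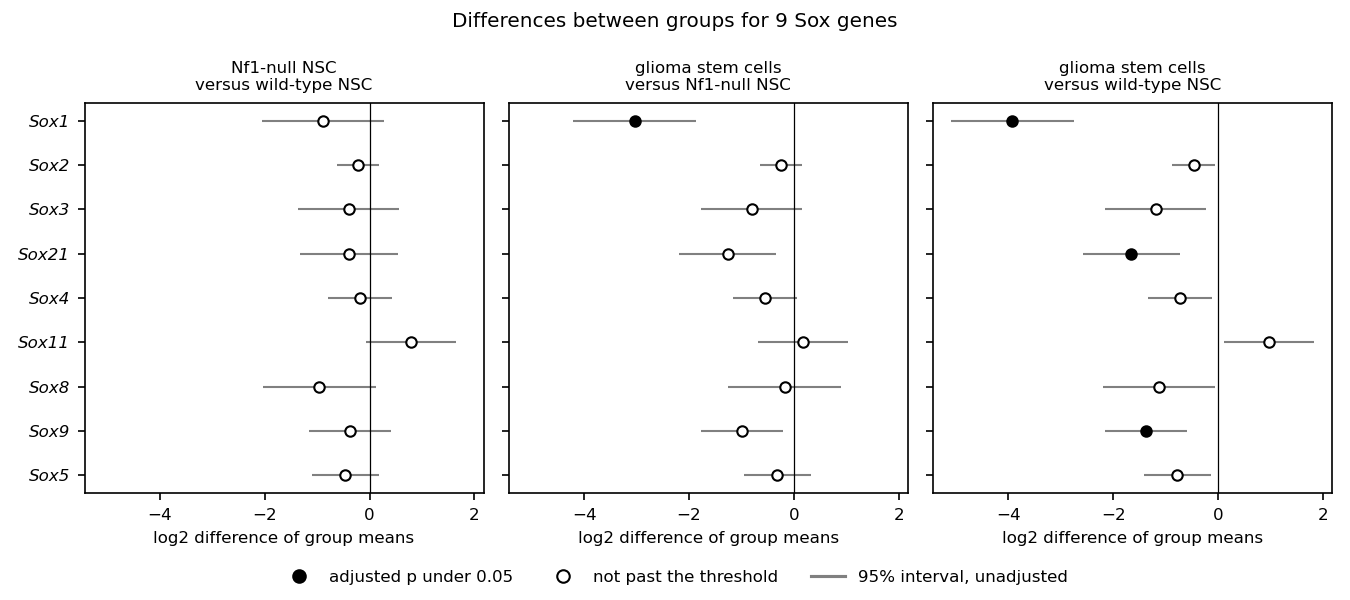
Log2 difference of group means (horizontal axis) for the 9 Sox genes in the 3 comparisons, with lines for the unadjusted 95% interval and filled circles for an adjusted p under 0.05. The 8 genes other than Sox11 lie left of 0 in all 3 comparisons and Sox11 right of it, and only Sox1, Sox21 and Sox9 are filled.

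Group C split. Sox4, which acts in precursors and immature neurons, had signals of 90602.0, 91158.1 and 77534.5 in wild-type cultures, 79187.0, 73789.2 and 75311.2 in Nf1-null cultures, and 79141.8, 47320.3 and 37555.7 in glioma cultures. Glioma array 1 lay within the NSC range and arrays 2 and 3 well below it. The log2 difference from wild-type cultures was -0.73 (SE 0.27, adjusted p = 0.130) and that from Nf1-null cultures -0.55 (SE 0.27, adjusted p = 0.359), and neither passed. Without glioma array 1, which leaves only the closely alike arrays 2 and 3 in that group, both passed, at -1.03 (adjusted p = 0.0195) and -0.85 (adjusted p = 0.0498). This probe set was brighter than 99.7% of all probe sets. The other 5 Sox4 probe sets with a mean log2 signal of 8 or more, a limit chosen after the values were seen, gave log2 differences from wild-type cultures of -0.85 to -1.55, each larger in size than that of the brightest.

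Sox11, the close relative of Sox4, was the only member with a positive difference in the 3 comparisons. Its signals were 12593.4, 7931.5 and 5752.3 in wild-type cultures, 17635.1, 18831.8 and 8938.0 in Nf1-null cultures, and 18359.4, 15778.4 and 14875.1 in glioma cultures. All glioma arrays were above wild-type cultures, while Nf1-null cultures spanned both ranges through its array 3. The log2 difference from wild-type cultures was 0.97 in glioma cultures (SE 0.37, 95% interval 0.11 to 1.83, adjusted p = 0.146) and 0.79 in Nf1-null cultures (SE 0.37, 95% interval -0.07 to 1.65, adjusted p = 0.334), and neither passed. In each same-numbered NSC pair Sox11 was higher in the Nf1-null array, by 0.49, 1.25 and 0.64. All 6 Sox11 probe sets were positive against wild-type cultures, at 0.57 to 1.87 in glioma cultures and 0.53 to 0.97 in Nf1-null cultures. Between glioma cultures and Nf1-null cultures the difference was 0.18 (SE 0.37, adjusted p = 0.857), and it turned to -0.16 without Nf1-null array 3.

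**Figure D3:**
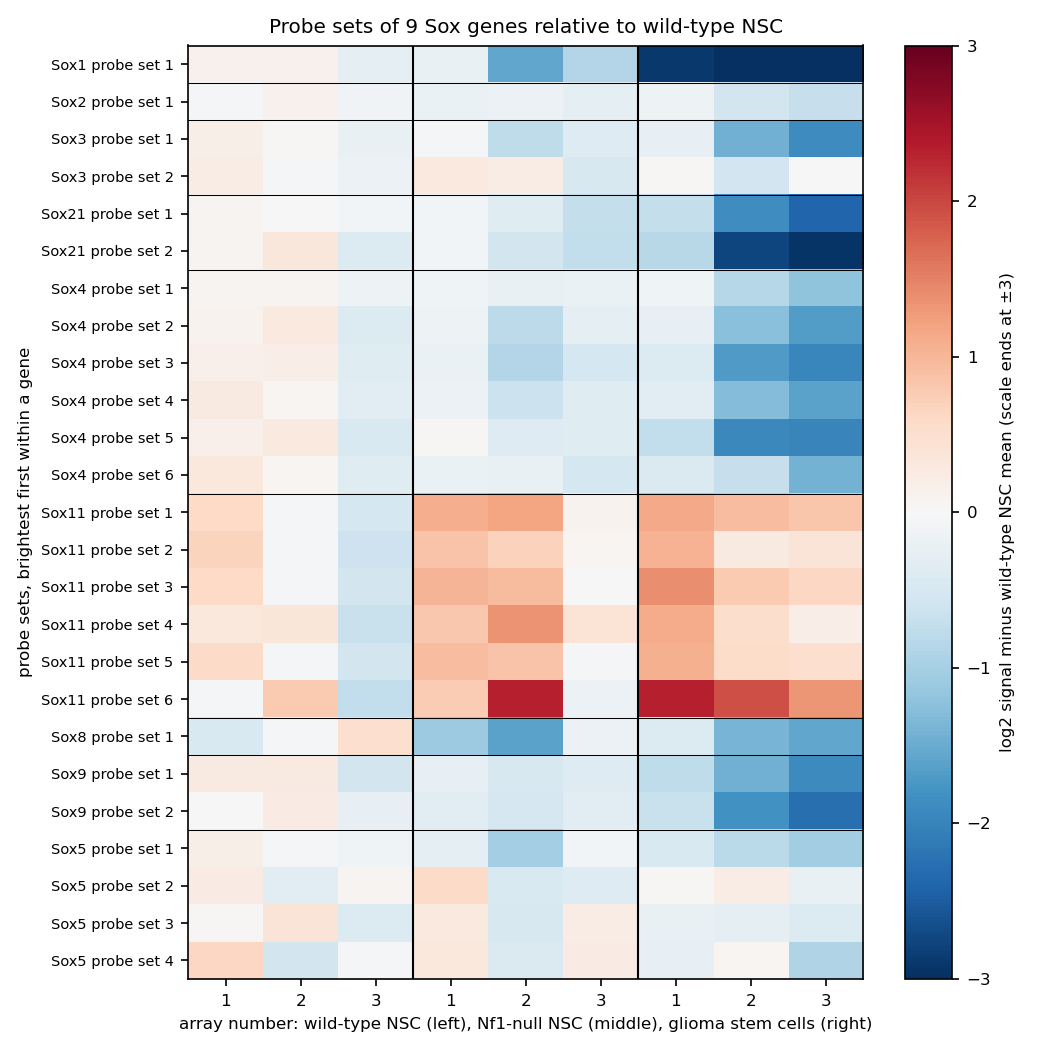
Log2 signal minus the wild-type cultures mean (colour, blue lower and red higher, ends of the scale at 3) for the 25 member probe sets with a mean log2 signal of 8 or more (rows, grouped by gene) on the 9 arrays (columns). Sox4 and Sox21 rows are blue on glioma arrays 2 and 3 and paler on array 1, and the 6 Sox11 rows are red on glioma arrays.

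Sox8, a group E factor that oligodendrocyte precursors and astrocytes express, spread widely between replicates. Its signals were 13315.5, 17703.4 and 25759.7 in wild-type cultures, 8540.9, 5973.4 and 16218.2 in Nf1-null cultures, and 13621.3, 6916.6 and 6150.9 in glioma cultures. The 3 groups overlapped. Log2 differences from wild-type cultures were -1.13 in glioma cultures (SE 0.46, adjusted p = 0.172) and -0.96 in Nf1-null cultures (SE 0.46, adjusted p = 0.347), and neither passed. Each same-numbered NSC pair was lower in the Nf1-null array, by -0.64, -1.57 and -0.67. Glioma cultures and Nf1-null cultures differed by -0.17 (SE 0.46), which became 0.22 without Nf1-null array 3 and 0.05 without glioma array 3.

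Sox5, of group D, had signals of 3096.8, 2677.8 and 2515.1 in wild-type cultures, 2254.6, 1363.9 and 2593.7 in Nf1-null cultures, and 1993.0, 1571.0 and 1325.1 in glioma cultures. Glioma cultures lay below wild-type cultures without overlap, but the difference did not pass (log2 -0.78, SE 0.27, adjusted p = 0.120). The Nf1-null cultures spread over both other groups (log2 -0.46 from wild-type cultures, SE 0.27, adjusted p = 0.439), and with the mean of all Sox5 probe sets that difference was 0.070. Of its 7 probe sets, the 3 next in brightness gave log2 differences from wild-type cultures of 0.012, -0.30 and -0.37 in glioma cultures, so the brightest was not matched by them. Against Nf1-null cultures, 3 members lay wholly lower in glioma cultures, Sox1, Sox9 and Sox21, as did 12.7% of all genes.

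Other Sox genes were compared from a list of 11, all measured, of which 0 passed in any of the 3 comparisons. Sox6, a group D relative of Sox5 found in oligodendrocyte precursors, had signals of 12829.2, 13603.3 and 16558.8 in wild-type cultures, 5556.2, 1965.7 and 6767.9 in Nf1-null cultures, and 12997.8, 10017.1 and 8626.6 in glioma cultures. Nf1-null cultures lay below both other groups, with a log2 difference of -1.76 from wild-type cultures (SE 0.44, adjusted p = 0.160), while glioma cultures were 1.31 above Nf1-null cultures (SE 0.44, adjusted p = 0.202). When only the brighter 9097 genes were tested, the first passed (adjusted p = 0.0469), but the share of these genes called in that fit is not given here. Sox10, the group E factor of the oligodendrocyte lineage, followed with 3479.2, 2511.4 and 1352.0 in wild-type cultures, 929.4, 262.8 and 1037.1 in Nf1-null cultures, and 741.4, 2176.0 and 2085.0 in glioma cultures. Its difference between the NSC groups was -1.85 (SE 0.67, adjusted p = 0.231), and glioma array 1 lay below arrays 2 and 3. The second Sox10 probe set had 396.1, 436.3 and 602.4 on glioma arrays 1, 2 and 3, so array 1 was not set apart there. That probe set gave -0.85 between the NSC groups.

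Sox13, the third group D gene, had signals of 657.3, 508.1 and 630.2 in wild-type cultures, 733.0, 489.7 and 680.4 in Nf1-null cultures, and 363.4, 87.2 and 48.4 in glioma cultures. The NSC groups overlapped and glioma cultures lay below both. The log2 difference from wild-type cultures was -2.35 (SE 0.65, adjusted p = 0.0647), which did not pass with all arrays and passed without glioma array 1 (-3.17, adjusted p = 0.00513), as did that from Nf1-null cultures (-3.25, adjusted p = 0.00663). Sox12, of group C, had signals between 1144.7 and 1620.6 on the 9 arrays with overlapping groups. Sox7, Sox14, Sox15, Sox17, Sox18, Sox30 and Sry had signals of at most 271.7 on any array. Sox2ot, a non-coding gene whose span overlaps Sox2, had signals of 2218.5, 1990.0 and 1289.2 in wild-type cultures, 1508.0, 648.8 and 839.3 in Nf1-null cultures, and 2100.7, 1964.0 and 1803.7 in glioma cultures, and so did not order the groups as Sox2 did. It was 1.06 higher in glioma cultures than in Nf1-null cultures (log2, SE 0.34, adjusted p = 0.177) without passing.

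**Figure D4:**
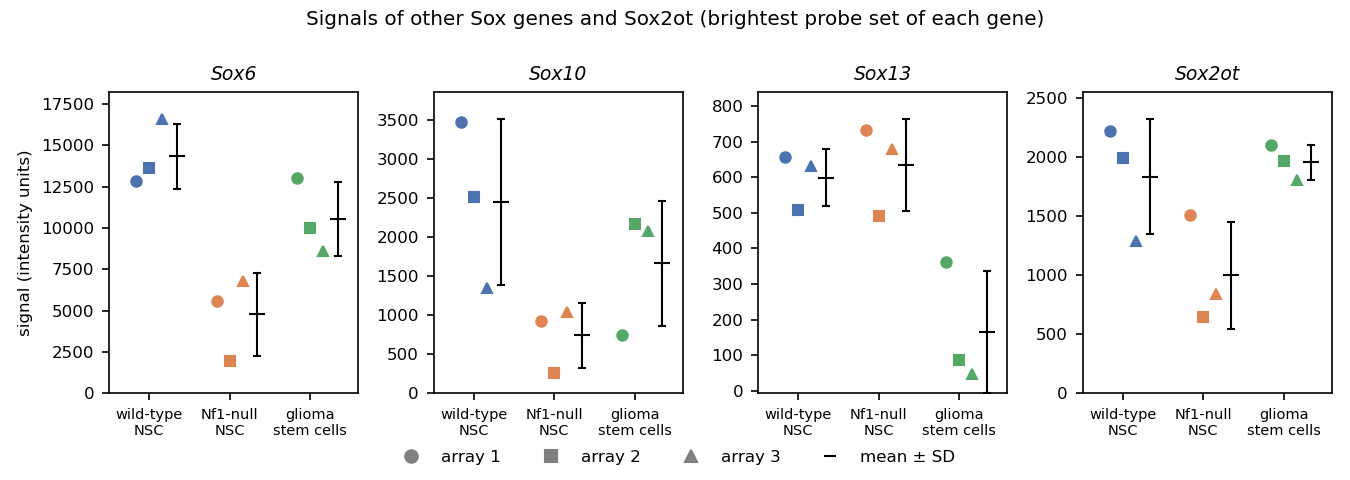
Signal in intensity units (vertical axis, linear, differing between panels) of Sox6, Sox10, Sox13 and Sox2ot on the 3 arrays of each group, with symbols for array number and bars for the mean ± SD. Sox6 is at 6767.9 or less in Nf1-null cultures and at 8626.6 or more elsewhere, and Sox13 is at 363.4 or less in glioma cultures.

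Partner factors of Sox proteins, which bind beside them or with them, were compared as a list of 19 genes of which 18 were measured. Against wild-type cultures, 1 rose and 2 fell in glioma cultures and 15 did not pass, beside 9.06% of all genes called in either direction. The list median was -0.06, against -0.09 over all genes. Pou3f1, a POU factor, rose by 1.68 log2 units (SE 0.33, adjusted p = 0.0279), from 757.4 to 1668.1 in wild-type cultures to 3432.2 to 4517.2 in glioma cultures. Gli2, a Hedgehog effector, fell by 1.78 (SE 0.30, adjusted p = 0.0194), and Nr2e1, the orphan receptor that maintains neural stem cells, fell by 1.22 (SE 0.29, adjusted p = 0.0414). Of these calls, that of Pou3f1 was lost without wild-type array 2 (1.32) or 3 (1.89) or glioma array 2 (1.66) or 3 (1.58), and that of Gli2 without wild-type array 2 (-1.95) or 3 (-1.61) or glioma array 2 (-1.56) or 3 (-1.69). That of Nr2e1 was lost on leaving out any 1 of the wild-type or glioma arrays or Nf1-null array 3 (-1.04 to -1.40). Without glioma array 1, 4 of 18 fell. Against Nf1-null cultures 0 of 18 passed, beside 1.75% of all genes called, and the largest differences were those of Gli2 (-1.34) and Pou3f4 (-1.19), which both passed without glioma array 1 (-1.64 and -1.59). Between the NSC groups 0 of 18 passed, with the largest differences at Pou3f1 (1.91, signals of 3593.5 to 5903.9 in Nf1-null cultures) and Prox1 (0.80).

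Genes described as targets of SoxB1 factors in neural progenitors, 13 in number, gave 0 that rose and 2 that fell in glioma cultures against wild-type cultures, Gli2 and Nr2e1 again, beside 5.6% of all genes that fell, with a median of -0.27, against -0.09 over all genes. Against Nf1-null cultures 0 of 13 passed, and the largest differences were those of Egfr (-1.35, and -1.86 with a call without glioma array 1) and Gli2. Between the NSC groups 0 passed, and Hes5, a Notch target, had the largest difference at -2.79 (adjusted p = 0.306) with Birc5, a mitotic and survival gene, at 2.17 the other way. Targets described for SoxC factors numbered 5. Tubb3, a neuronal tubulin, rose by 2.13 against Nf1-null cultures (SE 0.34, adjusted p = 0.0344), from 260.0 to 496.7 there to 1329.7 to 2194.1 in glioma cultures, and differed from wild-type cultures by 1.15 without passing. The Nf1-null call stands beside 0.671% of all genes that rose, and it held only on leaving out wild-type array 3 or glioma array 1, with values of 1.84 to 2.30 over the arrays left out. Dcx, a gene of migrating neuroblasts, had differences of -1.65 in Nf1-null cultures and -0.71 in glioma cultures from wild-type cultures and of 0.94 between the latter and Nf1-null cultures, none past the threshold.

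Of 14 genes described as targets of SoxE factors, 12 were measured. Against wild-type cultures 1 fell in glioma cultures, Mmd2, a target of Sox9 with Nfia in early gliogenesis, by 3.43 (SE 0.74, adjusted p = 0.0329), and 0 rose. That 1 of 12 is near the 5.6% of all genes that fell. Mmd2 signals were 45624.0, 63097.2 and 46127.6 in wild-type cultures, 20722.6, 9092.1 and 29013.9 in Nf1-null cultures, and 15640.6, 2802.2 and 2398.5 in glioma cultures, with glioma array 1 between the Nf1-null arrays and far above glioma arrays 2 and 3. Its difference was -4.30 without glioma array 1, and the call was lost without wild-type array 1, 2 or 3 (-3.51, -3.28 and -3.51), Nf1-null array 1 (-3.43) or glioma array 2 or 3 (-3.06 and -2.95). Apcdd1, another target of that pair, differed by -3.21 without passing (adjusted p = 0.0787), and passed without glioma array 1 (-4.35, adjusted p = 0.0112). The list median was -0.83, against -0.09 over all genes. Between the NSC groups 0 of 12 passed and 11 were negative, beside 55.5% of all genes. The median was -0.92, against -0.06 over all genes, with Pdgfra at -2.87 and Mbp at -2.75. Col2a1, Col11a2, Acan, Comp and Gjb1 were dim, with signals of at most 298.7 on any array. Their differences are uncertain and enter the medians and the count of negative genes. Against Nf1-null cultures 0 of 12 passed, with Mbp at 5.94 and Apcdd1 at -2.40. Mbp, a myelin gene, had signals of 2601.3, 29057.3 and 65239.2 in glioma cultures and of at most 376.5 in Nf1-null cultures, and without glioma array 1 it passed at 7.29, as did Apcdd1 at -3.53 and Mmd2 at -2.76.

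Of 7 astrocyte markers, 3 fell in glioma cultures against wild-type cultures, beside 5.6% of all genes: Aldh1l1 (log2 -6.66), Aqp4 (-7.26) and Gja1 (-3.23). The same 3 fell against Nf1-null cultures, beside 1.08% of all genes. S100b lay wholly higher in glioma cultures, at 1.95 and 2.46 in these comparisons without passing, and Slc1a2 and Aldoc were at 0.91 and 0.37 against Nf1-null cultures. Gfap had signals of 24.4 to 167.7 in glioma, 923.1 to 3291.6 in wild-type and 158.5 to 3053.0 in Nf1-null cultures, without a call. Of the 7, 6 were negative against wild-type cultures, all but S100b, beside 56.1% of all genes. Against Nf1-null cultures 4 were negative, beside 53.2% of all genes. The summed signal of the 7 was 186971 to 233950 in wild-type cultures, 79303 to 155358 in Nf1-null cultures and 81916 to 100648 in glioma cultures, so Nf1-null and glioma cultures overlapped in this sum. On leaving out each array 3 to 4 fell against wild-type and 1 to 3 against Nf1-null cultures. Oligodendrocyte precursor markers, 7 genes with Sox10 among them, summed to 119823 to 131199, 87074 to 108677 and 137702 to 150561, lowest in the Nf1-null cultures, as Sox6 was, and 2 of them, Pcdh15 and Lhfpl3, rose against Nf1-null cultures (0 to 2 on leaving out each array), beside 0.671% of all genes. Of the 5 ependymal markers 3 fell against wild-type cultures (0 to 3 on leaving out each array) and 1 against Nf1-null cultures (0 to 1), beside 5.6% and 1.08% of all genes, with sums of 2390 to 3800 in wild-type cultures and 640 to 985 in glioma cultures. Neuronal markers summed to 4625 to 7582, 2691 to 3101 and 3565 to 5314 over 7 genes. In glioma cultures 2 of them fell against wild-type cultures, Rbfox3 and Snap25, beside 5.6% of all genes. Only 1, Tubb3, rose against Nf1-null cultures, beside 0.671% of all genes. Schwann cell and neural crest markers summed to 1810 to 3862, 713 to 1468 and 1000 to 2717 over the 5 of 7 measured, Sox10 being one of these. Mature oligodendrocyte markers, 6 of 7 measured, summed to 42347 to 63461, 19842 to 44441 and 26837 to 92744. The part of these cell types in the Sox values was not tested.

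The genes, among the other 9096 brighter ones, whose log2 signal followed a member most closely over the 9 arrays were taken by Pearson correlation, as a description, since arrays of a group and the scaling are shared. For Sox1 these were the clone 4933427D14Rik (r = 0.992), Gja1, a gap junction gene of astrocytes (0.990), and Eya4 (0.988). Gja1 signals were 46358 and 28034 on Nf1-null arrays 1 and 2 and 13241 and 5006 on the same-numbered glioma arrays. For Sox9 they were Trrap (0.991), Phactr4 (0.981) and Eif4b (0.979). Kdm1a (0.986), Notch2 (0.981) and Ubtd2 (0.980) were closest to Sox21, and Notch2 signals were 5051.7 to 6857.7 in wild-type cultures and 892.8 to 2945.5 in glioma cultures. Closest to Sox2 were Kat6a (0.988), Bex4 (0.976) and Scrib (0.974).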

How the data were processed

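The deposited table holds one value per probe set and array, probe set intensity on a linear scale, scaled by the authors to a common level, as the values show. Of the tool that made them the sources used here say nothing. Labelled cRNA was made from 100 ng of RNA, per the labels. Of 45101 probe sets, 64 were controls, 34945 had 1 platform gene symbol, 932 several and 9160 none, and those without exactly 1 stayed out. The brightest probe set by mean log2 value stood for a gene (18193 genes). The log2 of each deposited value plus a pseudocount of 1 was analysed, which shrinks the folds of dim genes. A single fit in limma 3.58.1 under R 4.3.3 took in all 9 arrays with a mean per group, with 6 residual and 1.63 prior degrees of freedom. The 3 contrasts were tested two-sided, with Benjamini-Hochberg adjustment over all genes and a threshold of 0.05. Errors are moderated standard errors, folds are 2 to the power of log2 differences, and 3 arrays per group limit the precision. The model was tested on simulated data.

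The Sox genes and the lists were chosen with earlier results of these data known. Text names all members and other Sox genes, list genes past the threshold (up to 4 per list and comparison) or the 2 largest differences where fewer than 2 passed, and the 3 most correlated genes for Sox2 and members with a call. Cell type markers and Xist are given beside the results. Same-numbered wild-type and Nf1-null arrays deviated together from their group means (r = 0.64, 0.24 and 0.59 over the brighter 9097 genes). Over all genes r was only 0.13, 0.05 and 0.17. This pairing comes from these data and not from the labels. Over the brighter genes same-numbered glioma arrays gave 0.30, 0.12 and 0.11 with Nf1-null cultures and 0.24, 0.05 and 0.20 with wild-type cultures. The glioma arrays came from other mice. Alternatives covered the normalization, probe set summary, filters on dim genes, variance prior, pseudocount, arrays in the fit, replicate block, arrays left out and threshold. Figures were drawn with matplotlib 3.10.9.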

Additional observations from a re-analysis of the deposited data

How the results depend on the processing

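The number of the 9 Sox genes past the threshold was 0 between Nf1-null and wild-type cultures under every alternative run, leaving out each array included (0 to 0). For glioma cultures against Nf1-null cultures it was 1, and became 0 with the mean of all probe sets, without moderation and in the 6 arrays compared, 3 with the replicate block among the brighter genes (Sox1, Sox9 and Sox21), and 0 to 3 on leaving out each array. For glioma cultures against wild-type cultures it was 3, and became 1 with arrays shifted to the same median, with every probe set as its own feature, without moderation and in the 6 arrays compared. It was 5 among the brighter genes and 1 to 5 on leaving out each array. With the replicate block among the brighter genes it was 8, all members but Sox8, of which Sox11 rose. The shares of all genes called in the filtered, blocked and left-out fits are not given here, so these counts are no result about the Sox genes. Filters leave fewer genes to adjust over, and fits of 6 or 8 arrays have fewer samples. The cause of the other changes was not tested. With the replicate number as a block in all genes, the counts stayed at 0, 1 and 3, with the same genes called. The block joins each glioma array to same-numbered NSC arrays, which came from other mice. Its counts for glioma cultures thus rest on a pairing without a basis in the labels. Median alignment moved the comparisons by at most 0.08 on the log2 scale. Directions that reversed were those of differences that had not passed: Sox5 between the NSC groups with the mean of all probe sets (0.070), Sox13 there without wild-type array 2 or Nf1-null array 1 (-0.043 to 0.25 over the arrays left out), Sox8 in glioma cultures against Nf1-null cultures without Nf1-null array 3 or glioma array 3 (-0.53 to 0.22), Sox11 there without Nf1-null array 3 (-0.16 to 0.37), and Sox2ot in glioma cultures against wild-type cultures without wild-type array 3 (-0.11 to 0.29). The cause was not tested. The file gives no detection calls, so which signals lie above background is not known here. Leaving out each array for the genes and counts of the partner, target and marker lists was chosen after seeing the data.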
